A study of Mus musculus with 10 samples.

Results

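The genes described here are 36 genes of autophagy, mitophagy and lysosomes, taken by symbol from the 53819 symbols counted in platelet RNA of mice. The libraries are 5 of adult mice, with replicate letters A, B, C, G and H, and 5 of mice of group P7, a label read here as the postnatal day, with letters A, B, C, E and I. No strain, sex, genotype or treatment is given for either group in the sources used here, and whether a library stands for 1 mouse or a pool is not stated. The p-values therefore take in the spread among these libraries, which may be technical. Each library was made by low-input amplification of polyA RNA and held 19431863 to 25029931 counts, and 3 counts, taken as the upper limit that a count of 0 allows, correspond to 0.120 to 0.154 CPM (counts in 1000000 of the library's counts). Levels of single genes are CPM with library sizes scaled by TMM. These limits cover counting error only, since the reads carry no molecular identifiers.

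Autophagy wraps cytoplasm or an organelle in a double membrane and delivers it to the lysosome for breakdown. Its proteins act in sequence, from the ULK1 kinase complex, through the ATG9 vesicles and the class III PI3-kinase complex that supply and mark the membrane, to the conjugation machinery that attaches LC3 and GABARAP proteins to it. Receptors such as p62 and NIX then tether cargo, mitochondria among them, to the LC3 and GABARAP proteins. Platelets have no nucleus and carry RNA made in megakaryocytes, so a transcript level in platelets reflects what was packaged and what has decayed since. In bulk RNA, fewer cells of a type and less RNA per cell cannot be told apart.

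Each of the 12 platelet marker genes checked, among them Pf4, Itga2b and Gp9, averaged at least 15.8 CPM at both ages. Their summed level was 56807 to 87808 CPM in adults and 58741 to 83541 CPM at P7, so the groups overlapped. In the test described below, 2 of the 12 were called higher in adults, Ppbp and Gp6. Another 4 were called lower, Itga2b, Itgb3, Gp1bb and Gp9. Of all tested genes 13.9% were called higher and 13.8% lower. Red cell markers summed to 591 to 1786 CPM in adults and 998 to 2574 CPM at P7, mostly Hba-a1, with 0 higher and 5 lower in adults of the 15 tested. Of 15 neutrophil markers 13 fell below the filter on low counts, and Ly6g and Cxcr2 were at 0 in each library. The neutrophil sum was 1.62 to 2.05 CPM in adults and 4.02 to 8.40 CPM at P7. Monocyte markers summed to 2911 to 6085 CPM in adults and 2243 to 3457 CPM at P7, nearly all of it Lyz2, while Csf1r and Cd14 stayed below 1 CPM on average at both ages. For B cell markers the sum was 5.58 to 7.52 CPM in adults and 8.73 to 27.0 CPM at P7, and for T and NK cell markers it was 10.5 to 18.9 CPM in adults and 7.0 to 10.5 CPM at P7. Beyond a fit with the red cell marker level as a covariate, the part of other cells in the results was not tested.

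Of the 36 genes, 33 passed the filter on low counts and went into edgeR's quasi-likelihood F test. Its p-values, written here as edgeR adjusted p, were adjusted by Benjamini-Hochberg over all 8198 genes kept. Adults had 3 genes called higher, Atg7, Lamp2 and Fundc1, and 5 called lower, Atg9a, Wipi1, Atg4d, Bnip3 and Tfeb, at an adjusted p under 0.05. The other 25 were not called. Of the tested members 9.09% were called higher and 15.2% lower in adults, 24.2% in all, and of all tested genes 13.9% were called higher and 13.8% lower, 27.7% in all. The members' shares are near or under this background. Bnip3 and Tfeb passed the filter only through their P7 libraries, so their high P7 level is what let them be tested. They add no support to the count of lower genes. Atg2b passed in the same way and was not called. Of all tested genes 857 passed in this way, and 295 of those were called lower. The median log2 fold change, adult over P7, was 0.05 among the tested members and -0.05 among all tested genes. Adult and P7 libraries did not overlap for 6 of the 33 (18.2%), 3 of them higher and 3 lower in adults, where 19.8% of all tested genes did not overlap, 9.76% higher and 10.1% lower. Bnip3 is among the 3 lower and adds no support to this count either. Together the 36 genes held 0.700% to 0.766% of counts in adult libraries and 0.686% to 0.793% in P7 libraries, which overlapped.

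**Figure D1:**
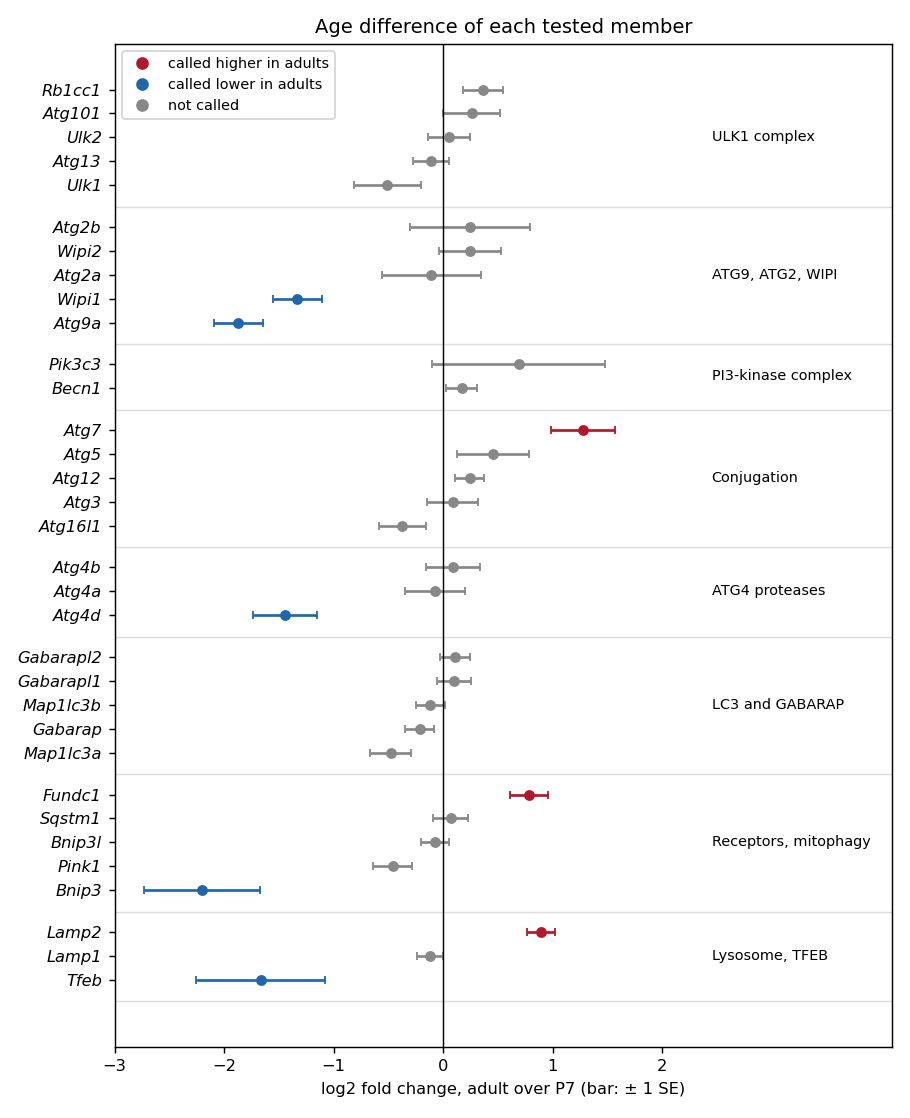
Log2 fold change, adult over P7, of the 33 tested genes by role, with bars of 1 SE on each side. Red points were called higher in adults, blue points lower and grey points were not called. The called genes run from -2.20 for Bnip3 to 1.28 for Atg7.

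The most abundant called gene was Lamp2, which encodes a heavily glycosylated protein of the lysosomal membrane and is mutated in human Danon disease. Its paralog Lamp1 encodes the other major glycoprotein of that membrane. The 250 bases before the RefSeq start of each gene are shown because the pair moved apart with age, and because the E-box CACGTG is the core of the motif bound by the lysosomal transcription factor TFEB. Capitals mark CACGTG, which reads the same on both strands. Both are from GRCm38.p6, given 5′ to 3′ on the gene's own strand, at chr8:13158911-13159160 on the plus strand for Lamp1 and at chrX:38456461-38456710 on the minus strand for Lamp2.
Lamp1: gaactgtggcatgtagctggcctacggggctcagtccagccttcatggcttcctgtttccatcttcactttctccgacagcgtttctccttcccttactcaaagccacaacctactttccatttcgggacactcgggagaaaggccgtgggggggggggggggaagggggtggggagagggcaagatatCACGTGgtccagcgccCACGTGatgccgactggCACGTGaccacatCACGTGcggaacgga
Lamp2: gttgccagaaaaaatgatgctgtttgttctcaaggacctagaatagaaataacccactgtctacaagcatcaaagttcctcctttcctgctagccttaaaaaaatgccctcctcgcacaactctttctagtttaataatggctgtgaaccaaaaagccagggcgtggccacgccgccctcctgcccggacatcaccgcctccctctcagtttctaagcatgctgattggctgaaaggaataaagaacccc
The Lamp1 window held 4 copies of the 6 letters and the Lamp2 window held 0. RefSeq promoters were matched for 29 of the 36 genes. Among 32851 such windows of all genes, 6.02% held at least 1 copy, 0.429% at least 2 and 0.0213% at least 4. Of the matched genes, Lamp1, Atg3, Atg5, Atg7 and Bnip3 held a copy in a window, and of these Atg7 was called higher and Bnip3 lower in adults. A match is a description of letters and not of a bound site.

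Lamp2 had 1436, 1231, 1097, 1267 and 1579 CPM in adult A, B, C, G and H, against 689, 713, 693, 648 and 815 CPM in P7 A, B, C, E and I. Each adult library lay above each P7 library, and the log2 fold change was 0.89 ± 0.13 (SE, edgeR adjusted p = 0.00021). Lamp1 had 1036, 857, 861, 889 and 972 CPM in adult A, B, C, G and H, against 931, 1102, 919, 953 and 1122 CPM in P7 A, B, C, E and I. Here the groups overlapped, and the log2 fold change of -0.12 ± 0.12 (SE) did not pass (edgeR adjusted p = 0.48). Within each library the log2 ratio of Lamp1 to Lamp2, taken from CPM with 0.5 added, was -0.70 to -0.35 in adults and 0.41 to 0.63 at P7, and the mean was -0.51 ± 0.13 in adults and 0.50 ± 0.09 at P7 (SD, n = 5 each). The difference, adult minus P7, was -1.01 ± 0.07 (SE; two-sided exact permutation p = 0.0079, the smallest that 252 splits allow, 0.0212 adjusted over 8 pairs of related genes and 0.0278 over the 7 pairs without Bnip3 and Bnip3l). Thus P7 platelets held more Lamp1 than Lamp2 counts and adult platelets more Lamp2 than Lamp1 counts, in each of the 5 libraries. The pairs were chosen with earlier results of these data known, and Lamp2 was already called on its own. The ratio test therefore adds no separate support. Counts are per symbol, so the splice forms of Lamp2 were not separated.

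Per kb of the gene's APPRIS principal transcript, Lamp2 stood at 367 CPM per kb in adults and 197 at P7, and Lamp1 at 414 CPM per kb in adults and 451 at P7. Per length, the mean of Lamp1 therefore stayed above that of Lamp2 at both ages. In adults the margin was small, and the order did not hold in adult H. With the length of all annotated exons the margin was wider, at 138 CPM per kb in adults and 74.5 at P7 for Lamp2 and 345 CPM per kb in adults and 376 at P7 for Lamp1. With the trend of counts with GC content removed, the log2 fold change of Lamp2 was 0.56, smaller by over 1.5 times, and still passed (edgeR adjusted p = 0.00662). Lamp2 was the 1 member that stayed called with the red cell marker level as a covariate, at 1.03 (edgeR adjusted p = 0.0473), in a fit that called 156 of 8198 genes and in which age explained 73.2% of the covariate's variance.

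**Figure D2:**
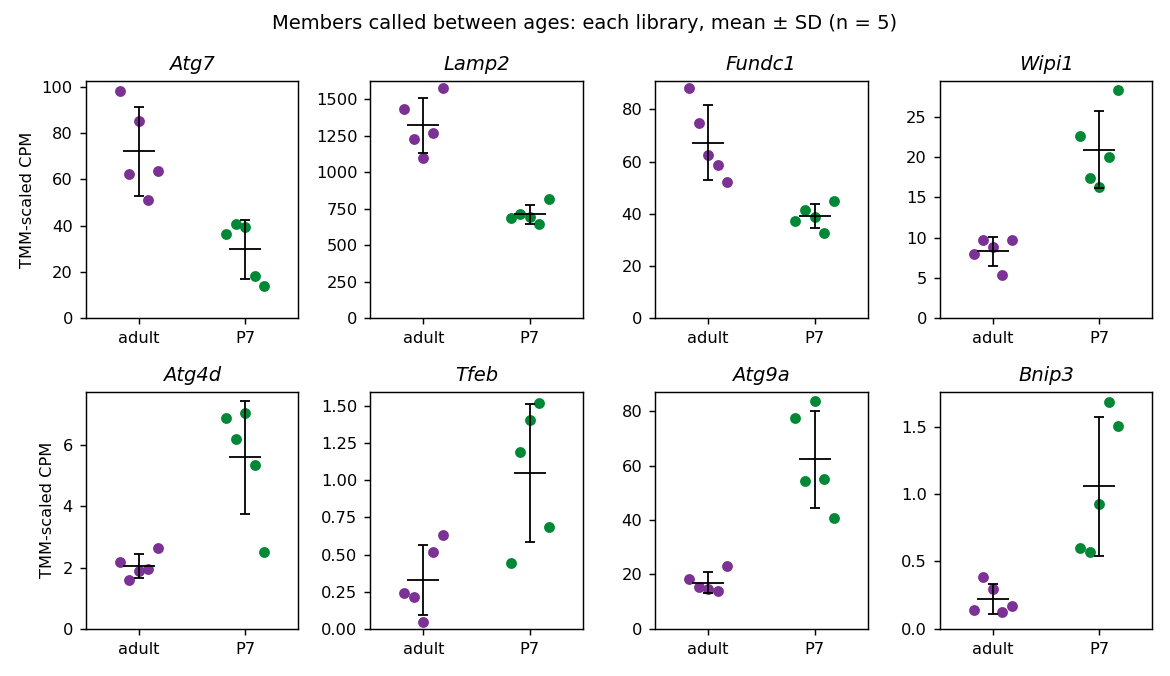
TMM-scaled CPM of the 8 called genes in each library, adult left and P7 right in each panel, with mean ± SD (n = 5 each) and axes from 0. Lamp2 sits between 1097 and 1579 CPM in adults and between 648 and 815 CPM at P7, while Bnip3 and Tfeb stay under 2 CPM.

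Tfeb, which encodes the transcription factor that drives lysosomal and autophagy genes, was close to the counting limit. It had 5, 5, 1, 12 and 11 counts in adult A, B, C, G and H, against 11, 23, 35, 38 and 15 counts in P7 A, B, C, E and I. In CPM these were 0.239, 0.215, 0.0487, 0.514 and 0.631 in the adult libraries and 0.443, 1.19, 1.41, 1.52 and 0.685 in the P7 libraries, in the same order. The groups overlapped, and the log2 fold change of -1.67 ± 0.59 (SE, edgeR adjusted p = 0.0468) passed by a narrow margin. The call was lost without any 1 of adult A, B and C and P7 B, C and E (log2 fold change of -1.62 to -1.38, edgeR adjusted p = 0.0832 to 0.122). It was also lost with the GC trend removed, at -1.24, and in limma-voom, at -1.83. With the 6 libraries of letters A to C it was -2.50 and called.

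Initiation genes encode the ULK1 kinase complex, and 0 of 5 were called, where 27.7% of all tested genes were. Ulk1, the kinase that starts autophagosome formation, had 17.2, 24.9, 39.1, 63.4 and 32.4 CPM in adult A, B, C, G and H, against 61.1, 46.9, 68.3, 45.3 and 31.04 CPM in P7 A, B, C, E and I. Its adult libraries spread from the lowest to nearly the highest level of the 10, and the log2 fold change was -0.51 ± 0.30 (SE, edgeR adjusted p = 0.236). Without adult G, the adult library with the most Ulk1, the log2 fold change was -0.81 and passed (edgeR adjusted p = 0.0383). With the 6 libraries of letters A to C it was -1.09 and passed as well (edgeR adjusted p = 0.0221). The paralog Ulk2 had 30.6 to 36.9 CPM in adults and 18.9 to 37.6 CPM at P7, and the log2 ratio of Ulk1 to Ulk2 differed between ages by -0.68 ± 0.35 (SE; two-sided exact permutation p = 0.103, adjusted 0.138). Without adult G that difference was -0.95 and passed (exact permutation adjusted p = 0.0212 over 8 pairs and 0.0185 over 7). The scaffold genes Atg13 and Rb1cc1, which encodes FIP200, had log2 fold changes of -0.11 ± 0.16 and 0.36 ± 0.18, and Atg101, which stabilises ATG13, one of 0.26 ± 0.26 (SE).

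Genes for membrane supply and lipid transfer had 2 of 5 called lower in adults, Atg9a and Wipi1, where 13.8% of all tested genes were. Atg9a encodes a transmembrane scramblase whose vesicles seed the autophagosome. It had 18.2, 15.3, 14.6, 13.97 and 23.1 CPM in adult A, B, C, G and H, against 77.6, 54.3, 83.7, 55.1 and 40.8 CPM in P7 A, B, C, E and I. Each adult library was below each P7 library, with a log2 fold change of -1.87 ± 0.22 (SE, edgeR adjusted p = 4.46e-05), and it was called in 21 of 22 fits, at -1.51 with the GC trend removed. In the exception, the fit with the red cell marker covariate, the log2 fold change of Atg9a was -1.02 (edgeR adjusted p = 0.156). In the GENCODE M21 annotation 31.8% of the Atg9a exon length is shared with the transcript Gm29253, whose own row held at most 1 count in a library.

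Wipi1 encodes a protein that binds the lipid PI3P on the forming membrane. It had 7.97, 9.76, 8.77, 5.31 and 9.7 CPM in adult A, B, C, G and H, against 22.5, 17.4, 16.3, 20.01 and 28.3 CPM in P7 A, B, C, E and I. The groups were again apart, and the log2 fold change was -1.33 ± 0.22 (SE, edgeR adjusted p = 0.000533). Wipi2, the paralog that recruits ATG16L1, had 3.34 to 8.49 CPM in adults and 3.51 to 7.16 CPM at P7 and a log2 fold change of 0.24 ± 0.28 (SE, edgeR adjusted p = 0.565). The log2 ratio of Wipi1 to Wipi2 was -0.44 to 1.14 in adults and 1.44 to 2.84 at P7, without overlap. It averaged 0.43 ± 0.65 in adults and 1.91 ± 0.55 at P7 (SD, n = 5 each), a difference of -1.47 ± 0.38 (SE; two-sided exact permutation p = 0.0079, adjusted 0.0212 over 8 pairs and 0.0278 over 7). This pair too was chosen with earlier results known, and its test adds no separate support to the call of Wipi1. With the 6 libraries of letters A to C the difference in the ratio was -0.81, which 3 against 3 libraries cannot test at this threshold. The lipid transfer genes Atg2a and Atg2b were low, at 1.5 to 9.9 CPM in adults and 3.01 to 8.73 CPM at P7 for Atg2a and 0.287 to 2.79 CPM in adults and 0.775 to 1.88 CPM at P7 for Atg2b. Among the 33 tested members they varied most within the adult group, with an SD of 0.94 and 0.99 on the log2(CPM + 0.5) scale. Their log2 fold changes were -0.11 ± 0.45 and 0.24 ± 0.55 (SE).

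**Figure D3:**
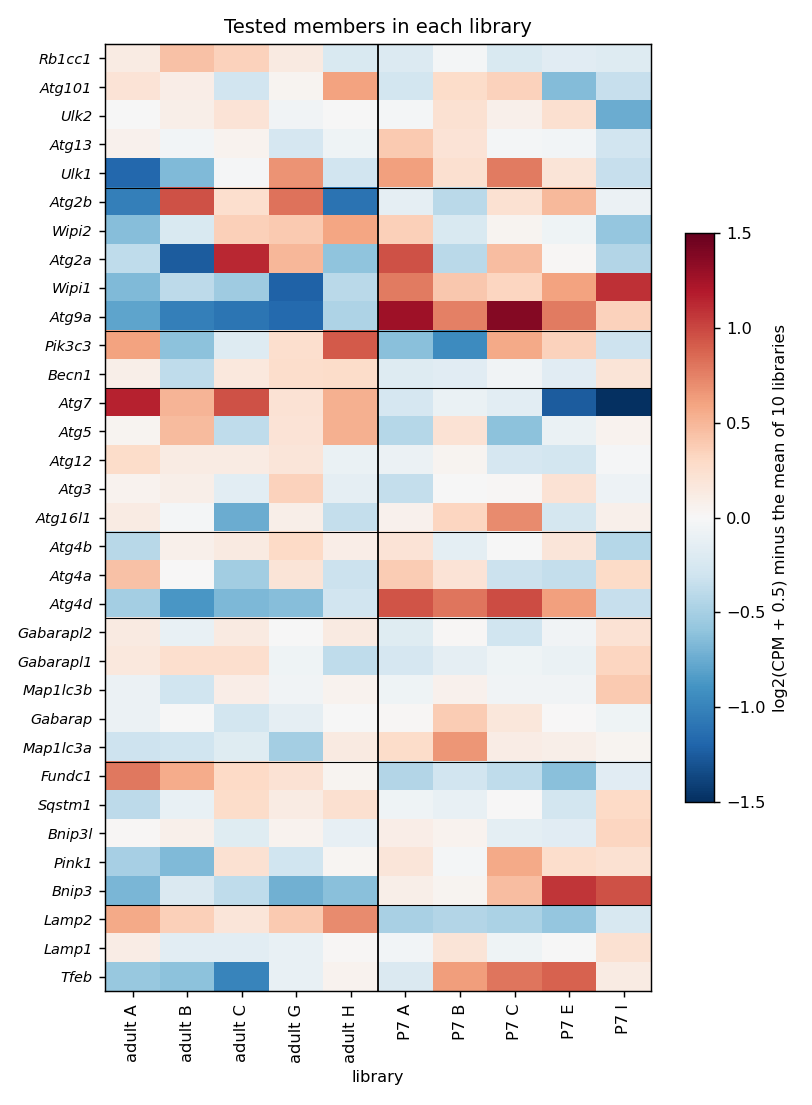
Level of each tested gene in each library as log2(CPM + 0.5) minus its mean over the 10 libraries, adult libraries left of the line and P7 libraries right of it, with genes in order of role. Atg9a and Wipi1 are high in P7 columns, Atg4d in each but P7 I, and Atg7, Fundc1 and Lamp2 are high in adult columns, while most LC3 and GABARAP rows stay pale.

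The class III PI3-kinase complex makes PI3P on the growing membrane. Becn1, which encodes its regulatory subunit Beclin 1, had 959.6, 695, 1006, 1083 and 1097 CPM in adult A, B, C, G and H, against 789, 804, 875, 805 and 1030.5 CPM in P7 A, B, C, E and I. The groups overlapped and the log2 fold change was 0.17 ± 0.14 (SE, edgeR adjusted p = 0.416). In the annotation 43.9% of the Becn1 exon length lies opposite exons of Cntd1, whose own row held at most 15 counts in a library. Pik3c3, Pik3r4 and Atg14, the genes of 3 partners of Beclin 1 in this complex, were near the limit of detection. The catalytic subunit gene Pik3c3 had 0 to 23 counts per library and a log2 fold change of 0.69 ± 0.79 (SE). Pik3r4, the gene of its regulatory partner VPS15, had 14, 12, 2, 0 and 1 counts in adult A, B, C, G and H, against 0, 0, 22, 4 and 11 in P7 A, B, C, E and I. Atg14, which directs the complex to autophagy, had 0, 9, 12, 0 and 0 counts in the adult libraries, against 16, 0, 12, 1 and 2 in the P7 libraries, in the same order. Both failed the filter, with counts scattered over libraries of both ages. At this depth no age difference was detectable for these 3 genes. Becn1 thus had at least 695 CPM in each library, while these 3 genes had at most 1.32 CPM, as Pik3c3 did in adult H. Other partners of Beclin 1 are not covered by this comparison.

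In the conjugation system, ATG7 is the E1-like enzyme, ATG3 and ATG10 are E2-like enzymes, and ATG12, ATG5 and ATG16L1 form the complex that places LC3 on membranes. Atg7 had 98.4, 62.6, 85.2, 50.9 and 63.7 CPM in adult A, B, C, G and H, against 36.6, 40.8, 39.3, 18.1 and 14.1 CPM in P7 A, B, C, E and I. Each adult library exceeded each P7 library, and P7 E and I were lower than the other P7 libraries. The log2 fold change was 1.28 ± 0.29 (SE, edgeR adjusted p = 0.0052), and 1.16 without P7 E and 1.11 without P7 I, both called. With the red cell marker covariate it was 1.94 and did not pass (edgeR adjusted p = 0.0973). The other 4 conjugation genes were not called. Atg12 was the most abundant of them, at 97.5 to 126 CPM in adults and 85.9 to 108 CPM at P7 (log2 fold change 0.24 ± 0.14, SE). Atg16l1 had 17.1 to 31.5 CPM in adults and 24.1 to 47.5 CPM at P7 (log2 fold change -0.37 ± 0.22, SE). Atg3 and Atg5 stayed under 5 CPM in each library, with log2 fold changes of 0.09 ± 0.23 and 0.46 ± 0.33 (SE).

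ATG4 proteases trim LC3 and GABARAP proteins before they are attached and release them again from membranes. Atg4d had 2.2, 1.59, 1.9, 1.97 and 2.64 CPM in adult A, B, C, G and H, against 6.88, 6.2, 7.03, 5.36 and 2.51 CPM in P7 A, B, C, E and I. P7 I lay within the adult range and the other P7 libraries lay above it, with a log2 fold change of -1.44 ± 0.29 (SE, edgeR adjusted p = 0.00234). In the fit with the red cell marker covariate the log2 fold change of Atg4d was -0.82 and was not called (edgeR adjusted p = 0.514). Of the Atg4d exon length 19.3% lies opposite exons of Kri1, whose row held at most 12 counts in a library. Atg4a and Atg4b, at 4.14 ± 1.22 CPM in adults and 4.37 ± 1.12 CPM at P7 for Atg4a and 3.9 ± 0.749 CPM in adults and 3.66 ± 0.719 CPM at P7 for Atg4b (SD, n = 5 each), had log2 fold changes of -0.08 ± 0.27 and 0.09 ± 0.24 (SE). Their ratio differed between ages by -0.16 ± 0.34 (SE; two-sided exact permutation p = 0.643, adjusted 0.735). Atg4c had 0 to 4 counts in adult libraries and 0 to 3 in P7 libraries, and was not tested.

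The LC3 and GABARAP genes encode the ubiquitin-like proteins that coat the autophagosome, and 0 of 5 were called, where 27.7% of all tested genes were. Per kb, Gabarapl1 was the highest of them at 402 CPM per kb in adults and 376 at P7, followed by Map1lc3b at 299 CPM per kb in adults and 325 at P7 and Gabarap at 151 CPM per kb in adults and 175 at P7. Gabarapl2, at 98.1 CPM per kb in adults and 91.2 at P7, and Map1lc3a, at 18.1 CPM per kb in adults and 25.2 at P7, were lower. This order held at both ages. With the length of all annotated exons in place of the principal transcript, Gabarap stood above Map1lc3b at both ages.

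Map1lc3b, which encodes LC3B, the usual marker protein of autophagosomes, had 740.1, 637, 841, 759 and 811 CPM in adult A, B, C, G and H, against 752, 821, 754, 758 and 1029 CPM in P7 A, B, C, E and I. P7 I was above all other libraries, and the log2 fold change was -0.12 ± 0.13 (SE, edgeR adjusted p = 0.542). Gabarapl2, which encodes the protein also called GATE-16, had 174, 146, 173, 157 and 173 CPM in adult A, B, C, G and H, against 139, 160.4, 128, 153 and 184 CPM in P7 A, B, C, E and I. Its groups overlapped too, at a log2 fold change of 0.10 ± 0.14 (SE). Gabarap itself had 204 ± 15.5 CPM in adults and 236 ± 30.6 CPM at P7 (SD, n = 5 each) and -0.21 ± 0.13, and Gabarapl1 had 731 ± 128 CPM in adults and 684 ± 110.5 CPM at P7 and 0.10 ± 0.15 (SE). Of the Gabarapl1 exon length 28.3% lies opposite the transcript 1700101I11Rik, whose row held 96 to 187 counts, while Gabarapl1 held 9369 to 19431. Map1lc3a, the LC3A gene, had 20.1 ± 3.49 CPM in adults and 28.1 ± 5.44 CPM at P7 (SD, n = 5 each), and its log2 fold change of -0.48 ± 0.18 (SE) missed the threshold (edgeR adjusted p = 0.0648). With library size alone Map1lc3a was called lower, at -0.55 (edgeR adjusted p = 0.0325), and with the GC trend removed it was at -0.05.

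Ratios between these paralogs did not pass either. The log2 ratio of Map1lc3a to Map1lc3b was -5.21 ± 0.22 in adults and -4.86 ± 0.35 at P7, and that of Gabarap to Gabarapl2 0.31 ± 0.19 in adults and 0.63 ± 0.29 at P7 (SD, n = 5 each). Their differences of -0.35 ± 0.18 and -0.32 ± 0.16 (SE) did not pass (two-sided exact permutation p = 0.0873 for both, adjusted 0.138 over 8 pairs and 0.144 over 7). Without P7 I, both passed at -0.49 and -0.43 (exact permutation adjusted p = 0.0381 over 8 pairs and 0.0417 over 7, for both).

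**Figure D4:**
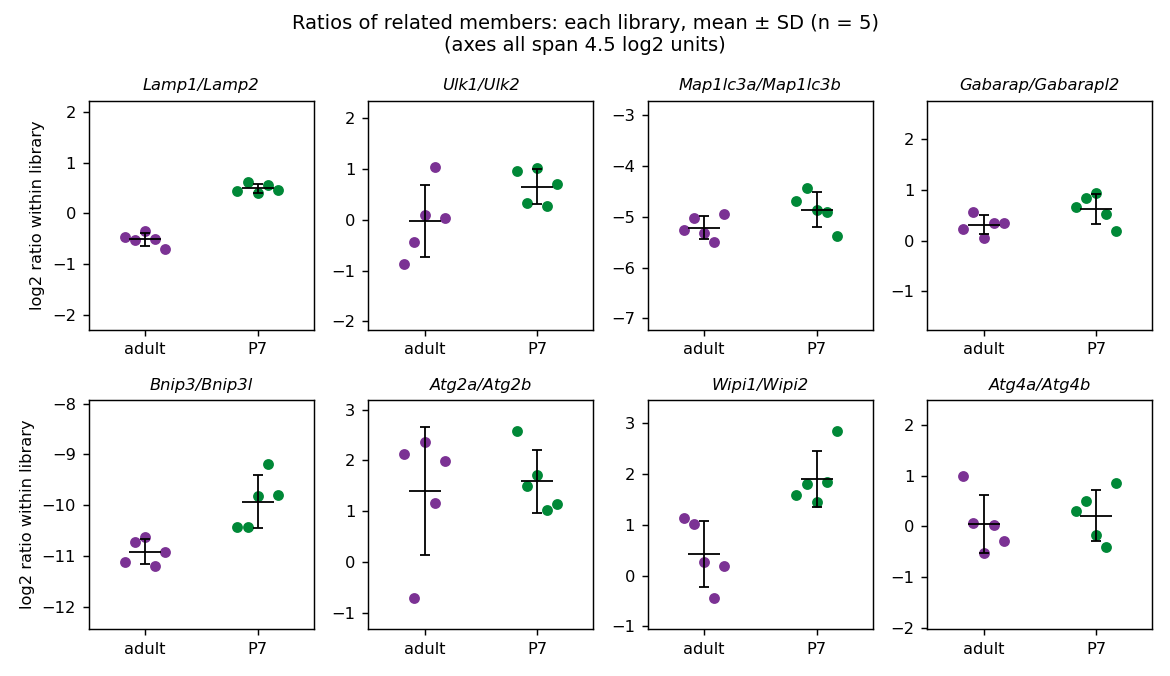
Log2 ratio of 2 related genes within each library, from CPM with 0.5 added, adult left and P7 right, with mean ± SD (n = 5 each). The groups are apart for Lamp1/Lamp2, Wipi1/Wipi2 and Bnip3/Bnip3l, whose test result is not given, and overlap for the other 5 pairs.

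Receptors bring cargo to the LC3 and GABARAP proteins. Fundc1 encodes an outer membrane receptor that recruits LC3 to mitochondria under low oxygen. It had 88.1, 74.7, 62.6, 58.9 and 52.3 CPM in adult A, B, C, G and H, against 37.3, 41.4, 38.8, 32.7 and 45.1 CPM in P7 A, B, C, E and I. Each adult library was above each P7 library, with a log2 fold change of 0.79 ± 0.17 (SE, edgeR adjusted p = 0.00374). With the GC trend removed it was 0.48, smaller by over 1.5 times, and passed by a narrow margin (edgeR adjusted p = 0.048), and with the red cell marker covariate it did not pass (log2 fold change of 0.94, edgeR adjusted p = 0.16). Fundc1, at 41.6% GC, and Lamp2, at 40.9%, had a lower GC content than most members, and over 8028 genes log2 fold changes were lower at higher GC content (rho of -0.28 by Spearman, where genes are no independent replicates).

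Bnip3l encodes NIX, the mitochondrial receptor through which maturing red cells discard their mitochondria. It had the highest mean CPM of the 36, and per kb stood at 430.3 CPM per kb in adults and 453 at P7. Bnip3l had 1434, 1499, 1254, 1472 and 1307 CPM in adult A, B, C, G and H, against 1522, 1477, 1286, 1266 and 1784 CPM in P7 A, B, C, E and I. The groups overlapped and the log2 fold change was -0.07 ± 0.13 (SE, edgeR adjusted p = 0.699). Apart from the fit with the red cell marker covariate, the part of red cells in its level was not tested. The processed copy Bnip3l-ps, whose reads can be confused with those of Bnip3l, held at most 427 counts in a library.

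The paralog Bnip3, a receptor gene induced by low oxygen in many tissues, was low. It had 3, 9, 6, 3 and 3 counts in adult A, B, C, G and H, against 15, 11, 23, 42 and 33 counts in P7 A, B, C, E and I. Each adult library was lower than each P7 library in CPM, at 0.129 to 0.387 CPM in adults and 0.568 to 1.68 CPM at P7. The log2 fold change of -2.20 ± 0.53 (SE, edgeR adjusted p = 0.00676) rests on these few counts and on the prior count of the fit. Of the Bnip3 exon length 22.3% lies opposite Gm45507, which had 0 counts. With the 6 libraries of letters A to C, Bnip3 was not called, at -1.30 (edgeR adjusted p = 0.205). The log2 ratio of Bnip3 to Bnip3l was -10.92 ± 0.24 in adults and -9.93 ± 0.52 at P7 (SD, n = 5 each), a difference of -0.99 ± 0.26 (SE). It is given as a description without its test result, since Bnip3 passed the filter on low counts only through its P7 libraries. The p-values adjusted over 8 pairs take in this pair, and those over 7 do not. The difference depends on the pseudocount, at -1.71 with 0.1 CPM and -0.38 with 2 CPM.

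Sqstm1 encodes p62, which links ubiquitin-tagged cargo to LC3. It had 253, 308, 403, 363 and 390.4 CPM in adult A, B, C, G and H, against 317, 306, 334, 274 and 408 CPM in P7 A, B, C, E and I. Of the Sqstm1 exon length 17.3% lies opposite Mrnip, which held at most 3 counts. The ranges overlapped, and the log2 fold change was 0.07 ± 0.16 (SE, edgeR adjusted p = 0.784). Pink1, which encodes the kinase that flags depolarised mitochondria, had 222, 198, 369, 255 and 321 CPM in adult A, B, C, G and H, against 357, 308, 467, 377 and 367 CPM in P7 A, B, C, E and I. Adult C and H reached the P7 range and the other adult libraries lay below it. The log2 fold change of -0.46 ± 0.18 (SE) missed the threshold (edgeR adjusted p = 0.0691), and was called without adult C, at -0.58 (edgeR adjusted p = 0.0242). With library size alone Pink1 was also called, at -0.53, and with the GC trend removed its log2 fold change was -0.10.

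Several abundant genes varied little within an age. Lamp1, Bnip3l, Gabarap and Gabarapl2 had SDs of 0.12, 0.11, 0.11 and 0.11 in adults, and 0.14, 0.20, 0.18 and 0.20 at P7, on the log2(CPM + 0.5) scale. Atg7 differed in spread, with an SD of 0.38 in adults and 0.70 at P7. Per kb, the highest members in adults were Bnip3l, Lamp1, Gabarapl1 and Lamp2, at 430.3, 414, 402 and 367 CPM per kb. At P7 they were Bnip3l, Lamp1, Gabarapl1 and Map1lc3b, at 453, 451, 376 and 325 CPM per kb. The gap between Bnip3l and Lamp1 is within the spread between libraries at both ages. With the length of all annotated exons Gabarapl1 came first in adults, at 363 CPM per kb, with Bnip3l at 361.

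Related genes outside the 36 were described by 7 lists, in which 94 of 111 genes with a row were tested. Adults had 12 of them higher and 18 lower, 12.8% and 19.1%, against background shares of 13.9% and 13.8%, with a median log2 fold change of -0.08. Of the 18 lower, Phb2 and 1 hydrolase gene passed the filter only through their P7 libraries. They add no support to these counts or those of their lists, which leaves 16 lower. In all, 6 of the 94 tested genes passed in this way. With library size alone the counts were 8 higher and 21 lower, with upper quartile scaling 9 and 21, and with the GC trend removed 15 and 12.

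Further autophagy genes had 4 of 13 tested higher in adults and 0 lower, 30.8% higher where 13.9% of all tested genes were, and 1 of the 4, Tmem41b, lost its call in 12 of 21 settings. Wdr45b and Wdr45, which encode the WIPI3 and WIPI4 proteins, had log2 fold changes of 1.30 ± 0.26 (SE, edgeR adjusted p = 0.00228) and 0.59 ± 0.15 (SE, edgeR adjusted p = 0.0104). The 2 other WIPI genes, Wipi1 and Wipi2, are given above, and of the 4 only Wipi1 was lower in adults. Ei24, an endoplasmic reticulum gene needed for autophagy, was at 1.22 ± 0.26, and Tmem41b, a scramblase gene of early autophagosome formation, at 0.82 ± 0.28 (SE).

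In selective autophagy 1 of 13 was higher and 4 were lower, 3 of them without Phb2. With Phb2 the shares were 7.69% higher and 30.8% lower, where 13.9% and 13.8% of all tested genes were. Tollip, an adaptor gene that links ubiquitin to LC3, had 753 ± 71.05 CPM in adults and 461 ± 39.2 CPM at P7 and a log2 fold change of 0.71 ± 0.12 (SE, edgeR adjusted p = 0.000692). Ncoa4, which encodes the receptor that takes ferritin to lysosomes, had 49.1 ± 13.3 CPM in adults and 113 ± 20.3 CPM at P7 (SD, n = 5 each) and -1.20 ± 0.21 (SE, edgeR adjusted p = 0.000685). Red cell precursors use Ncoa4 strongly, and the part of the lower red cell markers in this difference was not tested apart from the covariate fit. Fkbp8, a mitochondrial LC3 receptor gene, was at -0.50 ± 0.13, and Phb2, a prohibitin of the inner mitochondrial membrane, at -1.42 ± 0.37 (SE) from levels of 0.907 CPM in adults and 2.43 CPM at P7. Among genes that fuse autophagosomes with lysosomes 0 of 11 were higher and 2 lower, 18.2% lower where 13.8% of all tested genes were. The SNARE gene Stx17 had 5.57 to 9.67 CPM in adults and 14.3 to 24.8 CPM at P7, without overlap, and -1.42 ± 0.23 (SE, edgeR adjusted p = 0.000432), and its partner Vamp8 16.3 to 29.9 CPM in adults and 45.7 to 56.1 CPM at P7, without overlap, and -1.02 ± 0.18 (SE, edgeR adjusted p = 0.000945).

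Lysosomal hydrolases had 1 of 25 higher and 7 lower in adults, 28.0% lower where 13.8% of all tested genes were, and 6 lower without the one that passed the filter only through P7, with a median log2 fold change of -0.35. Ctsa, which encodes the protective protein cathepsin A, had 10.4 to 18.6 CPM in adults and 39.1 to 81.7 CPM at P7, without overlap, and the log2 fold change of -2.03 ± 0.24 (SE, edgeR adjusted p = 4.15e-05). Man2b1, a lysosomal mannosidase gene, had 1.55 to 6.49 CPM in adults and 9.54 to 26.5 CPM at P7 and -1.96 ± 0.40 (SE, edgeR adjusted p = 0.0025). Arsa, which encodes arylsulfatase A, was at -0.99 ± 0.29 (SE). The lysosomal membrane and Ragulator list went both ways, with 4 of 14 higher and 1 lower. These are 28.6% and 7.14%, where 13.9% and 13.8% of all tested genes were. Laptm4a, which encodes a lysosomal membrane protein, had 534 CPM in adults and 340.2 CPM at P7, at a log2 fold change of 0.65 ± 0.17 (SE). Within the Ragulator complex, which anchors mTORC1 to lysosomes, Lamtor5 and Lamtor4 went opposite ways, at log2 fold changes of 0.83 ± 0.19 and -1.71 ± 0.29 (SE).

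V-ATPase genes, for the pump that acidifies lysosomes and dense granules alike, had 1 of 16 higher and 4 lower. The membrane subunit genes Atp6v0a2 and Atp6v0a1 were at -0.72 ± 0.21 and -0.84 ± 0.27, the catalytic sector gene Atp6v1b2 at -0.79 ± 0.23, and the accessory gene Atp6ap2 at 0.57 ± 0.18 (SE). Of the relatives of TFEB, Tfec was higher in adults, with 10.2 ± 4.55 CPM in adults and 3.06 ± 1.09 CPM at P7 (SD, n = 5 each), a log2 fold change of 1.73 ± 0.34 (SE, edgeR adjusted p = 0.00174), and Tfe3 was at -0.07 ± 0.18 (SE). Tfec and Tfeb thus had log2 fold changes of opposite sign, both at low levels. Tfeb, however, passed the filter only through its P7 libraries and lost its call in 11 other settings.

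Of the 30 related genes called, 0 kept the call with the red cell marker covariate. In that fit 156 of 8198 genes were called and age explained 73.2% of the covariate's variance. Age and red cell level can therefore hardly be told apart in it. In each other setting that tested them 11 kept the call, among them Wdr45b, Ei24, Ncoa4, Tollip, Stx17, Vamp8, Ctsa, Man2b1, Lamtor4 and Lamtor5. With the GC trend removed, Fkbp8 was at -0.10, Arsa at -0.65 and Atp6ap2 at 0.26, and they were not called. Tmem41b was not called without adult G, at 0.54.

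**Figure D5:**
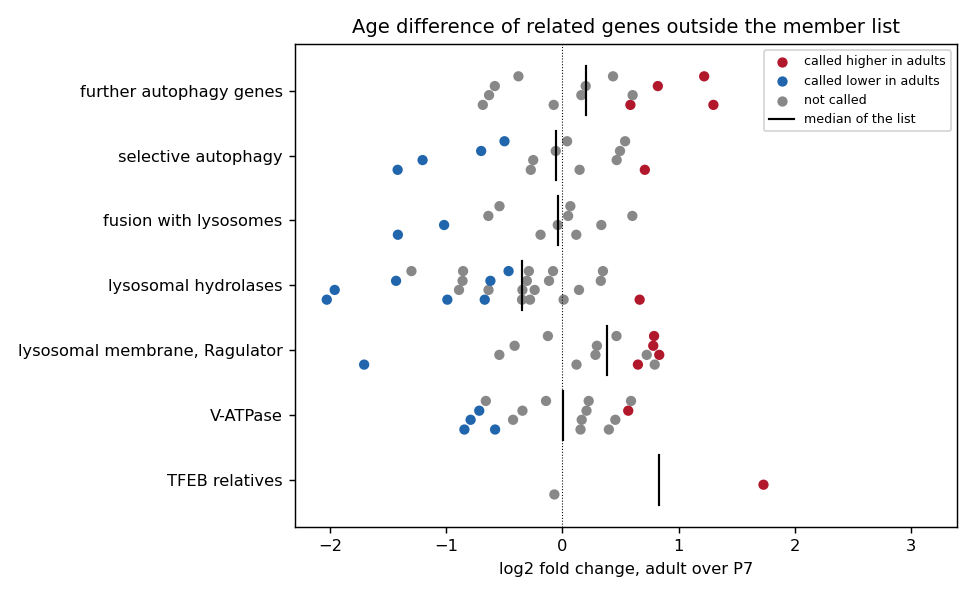
Log2 fold change, adult over P7, of 94 tested genes of 7 related lists, with a black bar at each list's median. The hydrolase list has its median at -0.35 with 7 genes called lower and 1 higher, and the lysosomal membrane list has 4 called higher and 1 lower. Of all tested genes 13.9% were called higher and 13.8% lower.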

How the data were processed

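The deposited values are raw read counts per gene symbol, 1 file for each of 10 libraries, with no normalization by the authors seen in them. The submitters' processing notes name Salmon 1.5.2, featureCounts, Subread 2.0.1, STAR 2.7.9a and fastp 0.23.1 without saying what each did. Of the genome build, the sources used here say nothing. Whether counting used strand is not stated and the kit does not mark it, so reads of overlapping genes cannot be told apart. Total counts were 19431863 to 25029931.

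Genes were kept with filterByExpr (minimum count 10, minimum total 15), scaled with TMM, and tested with edgeR 4.0.16 (R 4.3.3) by the quasi-likelihood F test with robust dispersions and age as the only term, Benjamini-Hochberg adjusted over 8198 genes and called under 0.05. Log2 fold changes are adult over P7, and levels are TMM-scaled CPM. Lengths, GC content and exon overlaps came from GENCODE M21, and promoters from RefSeq (GRCm38.p6). Ratios of 8 paralog pairs were compared by exact permutation of libraries, and 1 of them, Bnip3/Bnip3l, is given without its test. Alternatives included DESeq2 1.42.0 and limma-voom (limma 3.58.1).

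Members, lists and pairs were chosen with earlier results of these data known. Members were described in full where called or where they are the usual marker of their step, and related genes were named by the smallest p, up to 4 called in each list. Some genes that this rule takes are not reported here.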

Additional observations from a re-analysis of the deposited data

Results flagged for a closer look

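In 3 of 66 groups of 5 libraries, 1 library stood far from the other 4, with a gap of over 0.71 of the whole range (Dixon's 95% critical value). Chance alone flags about 1 in 20 such groups. Rb1cc1 was at 10.8 CPM in P7 B, with 9.33 to 9.72 CPM in the other P7 libraries. Map1lc3b was at 1029 CPM in P7 I, against 752 to 821 CPM in the others. In the same library Gabarapl1 was at 875 CPM, with 589 to 669 CPM in the others.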

How the results depend on the processing

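With 21 other settings, Lamp2 kept its call in each, Atg9a, Wipi1, Atg7, Fundc1 and Atg4d in each that tested them except the erythroid covariate, Bnip3 in 17 of 20 and Tfeb in 9 of 20. The erythroid covariate left 1 member higher and 0 lower in adults, 0 wider genes either way and 156 genes in all. By construction a filter of 10 CPM tested fewer genes, with 1210 of 2800 called, where the main fit called 2272 of 8198. Under it 7 of 56 wider genes were higher, 3 of 21 members higher and 4 lower, and 1 paralog pair of 4 passed. Letters A to C did not mark shared variation (correlations of deviations from group means of -0.038, 0.065 and 0.0067 for same-letter libraries, and not every library was most like the one of its own letter), and with them as a replicate block, over 6 libraries, 1416 genes were called (1886 without the block) and 8 wider genes were lower; the members were 3 higher and 4 lower. The median log2 fold change of members, 0.05, was -0.064 in limma-voom, -0.055 with no filter, -0.13 with the 10 CPM filter, -0.065 with the block, -0.061 with letters A to C and no block and -0.072 with the erythroid covariate, and -0.036 to 0.081 with 1 library left out, so it has no stable sign. Leaving out 1 library gave 10 to 15 wider genes lower, with 10 without P7 C and 11 without P7 E or adult H, and 2 to 5 paralog pairs, with 5 without P7 I. These counts of pairs include Bnip3/Bnip3l, without which, in an alternative chosen after seeing the data, 2 of 7 pairs passed, Lamp1/Lamp2 and Wipi1/Wipi2; over these 7, both missed the threshold without any 1 of P7 A, B, C and E (exact permutation adjusted p = 0.0556). The exact test of pairs could not reach the threshold with 3 against 3 libraries. Causes of these changes were not tested.

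Log2 fold changes and log2 ratio differences changed sign as follows. The values were, with library size only -0.017 for Ulk2; with upper quartile scaling -0.0098 for Ulk2; with the 10 CPM filter -0.0036 for Ulk2; with the erythroid covariate 8.2e-05 for Atg13, -0.20 for Atg2b, -0.044 for Becn1, -0.016 for Atg3, 0.23 for Atg16l1, -0.067 for Atg4b, -0.072 for Gabarapl1, -0.15 for Gabarapl2, -0.21 for Sqstm1 and 0.10 for Grn. They were, with the GC trend removed 0.051 for Atg13, -0.064 for Rb1cc1, 0.29 for Atg2a, -0.19 for Atg3 and 0.079 for Map1lc3b, with letters A to C as a block -0.087 for Atg101, -0.21 for Wipi2 and -0.063 for Atg4b, with letters A to C and no block -0.092 for Atg101, -0.18 for Wipi2 and -0.054 for Atg4b and in limma-voom -0.14 for Atg2b. Of these, Grn had been called, lower in adults. With 1 library left out, ranges that crossed 0 were -0.078 to 0.14 for Ulk2, -0.18 to 0.0010 for Atg13, -0.57 to 0.19 for Atg2a, -0.11 to 0.51 for Atg2b, -0.22 to 0.049 for Atg4a, -0.0012 to 0.21 for Atg4b, -0.12 to 0.012 for Bnip3l, -0.45 to 0.33 for the ratio Atg2a/Atg2b and -0.39 to 6.2e-05 for the ratio Atg4a/Atg4b. Genes at a few counts per library, Bnip3, Tfeb, Pik3c3, Pik3r4, Atg14 and Atg4c, are limited by depth.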
